A study of Mus musculus with 12 samples.

Results

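The genes described here are 6 CXC chemokines, Cxcl1, Cxcl2, Cxcl3, Cxcl5, Ppbp and Pf4, and the granulocyte growth factor Csf3. They were taken by symbol, and all 7 of 7 were found among the 32285 genes of each count matrix. The data are single-cell RNA counts from mouse tumours of the cell line SCC35, from a study of how melanomas are rejected over time. The groups are 2 lines labelled as controls of a Mif knockout (lines 15 and 18) and 2 lines labelled Mif KO (lines 19 and 24), each sampled at days 0, 6, 10 and 16. There were 21 control and 21 KO samples with usable hashtags, of which 18 and 17, here called tumours, were taken after day 0. A further 3 tumours, 1 each at days 6, 10 and 16, carried the line name WT, which no labelled single-line library names, and these entered no comparison between groups. What day 0 stands for, the strain, age and treatment of the host mice, how the knockout was made and whether each line is 1 clone were not stated in the labels. Nothing says either that the tumours came from separate animals, so p-values over tumours measure the spread between these tumours. Each genotype is represented by only 2 lines, so what is particular to a line cannot be told apart from the genotype. Leaving a line out shows only whether a call depends on that line.

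Cxcl1, Cxcl2, Cxcl3, Cxcl5 and Ppbp encode small secreted proteins that bind the receptor CXCR2, and a gradient of them draws neutrophils out of the blood and into tissue. Cxcl1, Cxcl2 and Cxcl3 are classical targets of the transcription factor NF-kB, switched on by interleukin 1 and tumour necrosis factor in stromal cells, epithelial cells, macrophages and neutrophils. Pf4 (platelet factor 4) and Ppbp (the precursor of several platelet chemokines) are best known from platelet granules, and Pf4 is also made by some tissue macrophages. Csf3 encodes G-CSF, which acts through the receptor encoded by Csf3r to raise neutrophil output from the bone marrow. Mif, the gene targeted in the study, encodes a secreted cytokine of macrophages and many other cells.

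The 6 chemokine genes lie close together on chromosome 5 of the mouse genome, all on the plus strand, within 146579 bases (GENCODE M21 annotation, GRCm38). Cxcl5 lies at 90759360 to 90761624, Ppbp at 90768518 to 90770063 and Pf4 at 90772435 to 90773383. Cxcl3 lies at 90786103 to 90789600, Cxcl1 at 90891241 to 90893115 and Cxcl2 at 90903871 to 90905938. Csf3 lies apart, on chromosome 11 at 98701263 to 98703629, also on the plus strand. The sequences below end at the base before the GENCODE or RefSeq gene start, whichever comes first, and show where the promoters of the neighbouring genes differ. They come from RefSeq (GRCm38.p6), which gave promoters for 5 of the 7 genes, and are written 5′ to 3′ on the plus strand. Capitals mark matches on either strand to 2 forms of the NF-kB motif, GGG followed by any 3 bases and TTCC, and GGG followed by any 2 bases and TTTCC, which overlap each other.
Cxcl1, chr5:90891145-90891240: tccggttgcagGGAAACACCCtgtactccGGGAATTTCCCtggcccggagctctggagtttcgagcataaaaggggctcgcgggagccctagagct
Cxcl2, chr5:90903799-90903870: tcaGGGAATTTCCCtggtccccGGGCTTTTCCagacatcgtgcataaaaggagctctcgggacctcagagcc
Cxcl3, chr5:90786001-90786100: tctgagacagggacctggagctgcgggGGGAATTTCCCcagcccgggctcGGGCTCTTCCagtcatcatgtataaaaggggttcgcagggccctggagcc
Ppbp, chr5:90768418-90768517: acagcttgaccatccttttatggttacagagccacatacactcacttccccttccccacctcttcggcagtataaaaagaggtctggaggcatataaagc
Pf4, chr5:90772335-90772434: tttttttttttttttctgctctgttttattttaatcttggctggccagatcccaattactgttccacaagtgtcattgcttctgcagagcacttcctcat
In the 250 bases before the RefSeq start, the first of these forms matched 3 times in Cxcl1, 3 times in Cxcl2 and 3 times in Cxcl3, counting both strands, and 0 times in Ppbp and Pf4. Of 32851 such windows over all genes, 4.65% held it and 1.41% held the other form. The AP-1 motif TGANTCA was found only in Ppbp among the 5, and in 6.75% of all windows. These matches describe letters in the windows and show no binding.

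Each matrix held between 151386000 and 239699000 gene UMIs (unique molecules counted), and the samples held 224 to 4578 assigned cells and 1975210 to 27576700 UMIs. Cells were assigned to a class by counting marker genes with a UMI, and those with no Ptprc (the gene of CD45) and below every marker threshold are called line cells, since they made up 96.7% of assigned cells at day 0 and 70.2% later. Levels are UMIs per 1000000 (CPM) of all gene UMIs of that class in that tumour, for tumours with at least 20 cells of the class. Of 159660 distinct cell barcodes, 15834 occurred in 2 or more libraries. Mif itself, in line cells, stood at 1770 to 3113 CPM in control samples, at 42.6 to 69.0 CPM in the library of line 19 and at 227 to 444 CPM in that of line 24. In the 2 libraries that mixed lines it was higher, at 263 to 280 CPM in line 19 and 731 to 755 CPM in line 24. The labels thus held for Mif in every sample, and the KO lines were lower by a log2 change of -3.08 ± 0.32 (SE, edgeR adjusted p = 7.1e-10).

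After day 0 most members were concentrated in 1 cell class. Line cells, the most numerous class, held 88.7% of all Cxcl1 UMIs, while macrophage/monocyte-like cells held 64.3% of Cxcl2, 62.2% of Cxcl3, 80.9% of Ppbp and 90.6% of Pf4. Fibroblast-like cells, only 1742 of 94083 cells, held 80.6% of Cxcl5. Csf3 was rare, with 588 UMIs in line cells, 255 in fibroblast-like cells and 59 in endothelial-like cells. No cell passed the platelet gate of 3 among 8 markers.

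**Figure D1:**
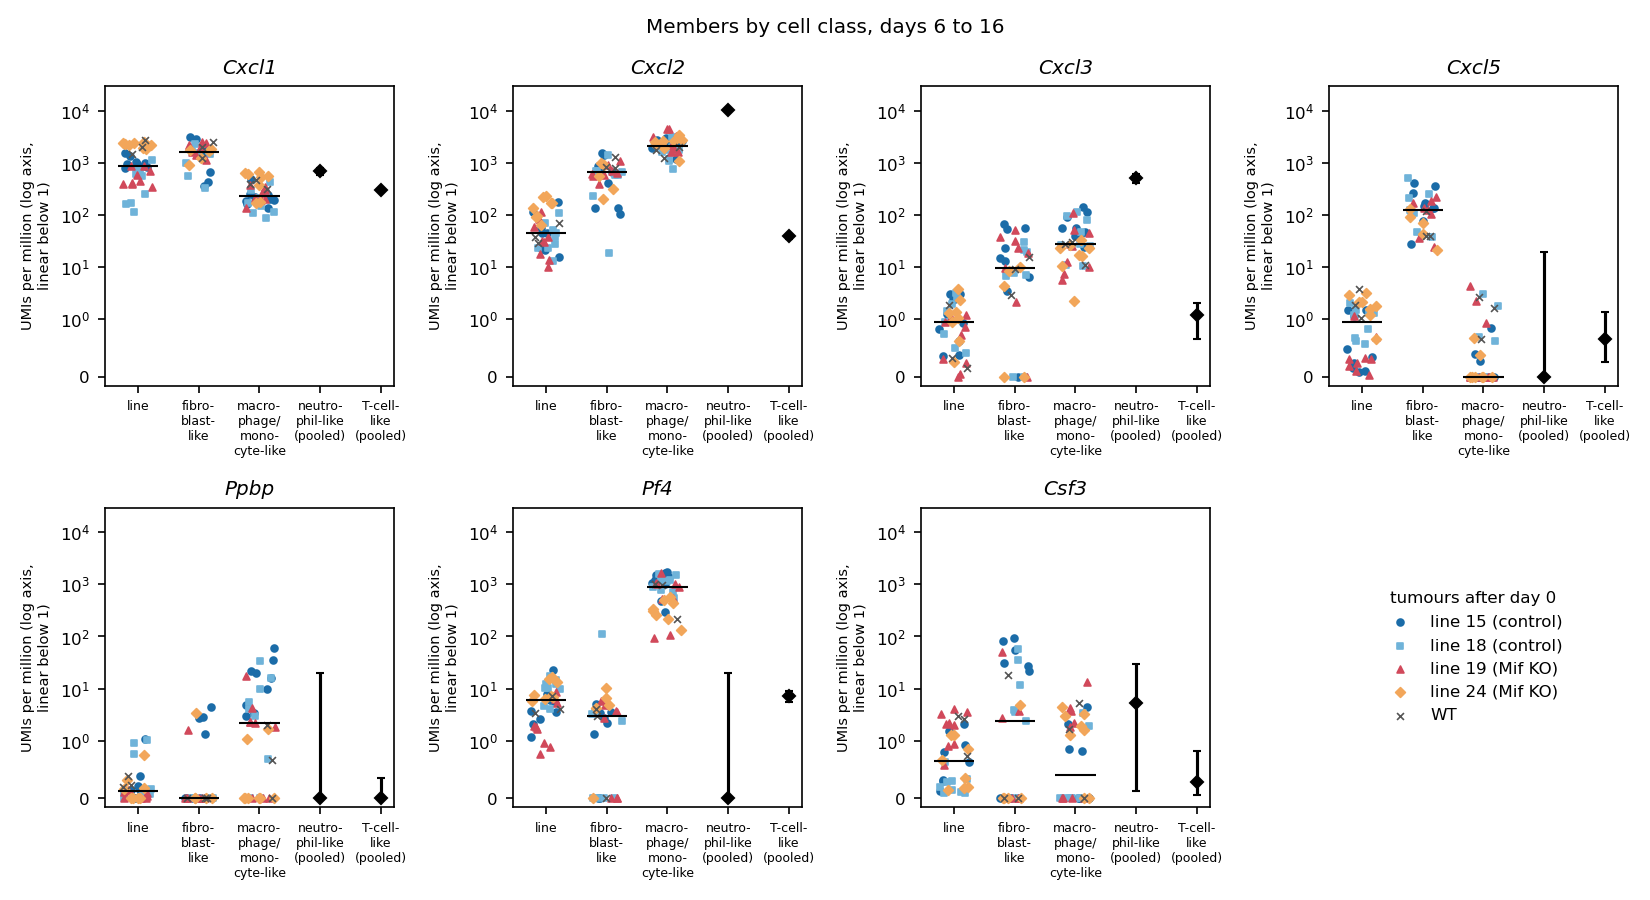
Level of each member by cell class after day 0, in CPM on a log axis that is linear below 1. Small symbols are tumours with at least 20 cells of the class, coloured by line, with a bar at their median; diamonds are pooled cells of all tumours with an exact 95% counting interval. Cxcl1 stands high in line and fibroblast-like cells, Cxcl5 in fibroblast-like cells, and Pf4 in macrophage/monocyte-like cells.

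Cxcl1, a first-wave neutrophil chemokine, ranged over tumours from 114 to 2746 CPM in line cells (median 875, n = 38), from 329 to 3170 CPM in fibroblast-like cells (median 1615, n = 33) and from 88.4 to 669 CPM in macrophage/monocyte-like cells (median 229, n = 38). At least 1 Cxcl1 UMI was seen in 54.4% of line cells and 82.1% of fibroblast-like cells. Macrophage/monocyte-like cells gave 24.2%, close to the 18.4% of T-cell-like cells, a class not known for this gene, at median depths of 2478 and 1667 UMIs. With cells of at least 1000 UMIs thinned to 1000, the shares became 34.5% for line, 58.5% for fibroblast-like, 13.6% for macrophage/monocyte-like and 11.04% for T-cell-like cells. Shallower cells were left out, 4392 of 66092 line, 1 of 1742 fibroblast-like, 748 of 13512 macrophage/monocyte-like and 452 of 4201 T-cell-like cells. For lines 15, 18, 19 and 24 in that order, the pooled Cxcl1 level of T-cell-like cells was 38.3, 108, 173 and 433 CPM, and that of line cells was 999, 435, 549 and 2286 CPM. Both were highest in line 24, but line 15 was lowest in T-cell-like cells and second in line cells. The part of RNA from other cells in the macrophage/monocyte-like level was not tested.

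Cxcl2, a chemokine made by activated macrophages and by neutrophils themselves, lay between 763 and 4536 CPM in macrophage/monocyte-like cells (median 2151, n = 38). All 38 tumours exceeded the pooled level in line cells, 53.1 CPM. It was seen in 64.2% of macrophage/monocyte-like, 50.1% of fibroblast-like, 9.75% of line and 5.81% of T-cell-like cells, and after thinning in 53.3%, 29.2%, 3.78% and 3.39%. Line cells and T-cell-like cells thus had nearly the same thinned share. Cxcl3, a close copy of Cxcl2, had a pooled level of 43.5 CPM in macrophage/monocyte-like cells, 18.4 in fibroblast-like cells and 1.02 in line cells. Among macrophage/monocyte-like cells with a Cxcl3 UMI, 94.3% also had Cxcl2, against 62.7% of those without, at median depths of 2703 and 2465 UMIs. The Cxcl2 and Cxcl3 transcripts share an identical run of 110 bases, so the split of reads between these genes is uncertain.

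Tested within tumours, 4 of 7 members were higher and 2 lower in macrophage/monocyte-like than in line cells (edgeR, adjusted p under 0.05, which 80.9% of 12794 genes passed in either direction, 37.7% higher and 43.1% lower). The members' median log2 difference was 4.83, against -0.06 over all genes. Pf4 was higher by 7.11 ± 0.29 (log2, SE), Cxcl2 by 5.56 ± 0.23, Cxcl3 by 5.29 ± 0.24 and Ppbp by 4.83 ± 0.44. Cxcl1 was lower, at -1.58 ± 0.14. Cxcl5 was also called lower, at -0.85 ± 0.36 (adjusted p = 0.028), from 22 UMIs in all macrophage/monocyte-like cells, a call lost with DESeq2 (adjusted p = 0.14) and without lines 15, 18 or 24. Csf3 differed by 0.71 ± 0.35 (adjusted p = 0.061) and was not called.

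In fibroblast-like against line cells, a comparison added after seeing that this class held most Cxcl5, 5 of 6 members tested were higher and none lower, where 74.2% of 12938 genes were called in either direction, 31% higher and 43.2% lower. The members' median log2 difference was 3.60, against -0.15 over all genes. Cxcl5, an epithelial and stromal CXCR2 ligand, was higher by 7.26 ± 0.29 (log2, SE, 33 tumours). Its pooled level was 153 CPM in fibroblast-like cells, with a UMI in 27.8% of them, and 0.893 CPM in line cells. That line-cell level is 0.584% of the fibroblast-like level, inside the 0.331% to 6.2% that the 8 fibroblast marker genes reach in line cells. Those 8 genes also set the fibroblast-like gate, which by itself holds down their level in line cells, so the range is no independent yardstick. Cxcl3 was higher by 3.91 ± 0.31, Cxcl2 by 3.70 ± 0.20, Csf3 by 3.49 ± 0.54 and Cxcl1 by 0.96 ± 0.22 (adjusted p = 0.0002). Of the 17 NF-kB regulators and targets tested, 15 were higher in fibroblast-like cells and none lower. Saa3, an acute-phase protein, was higher by 7.71 and Ccl7, a monocyte attractant, by 5.89.

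The 107 neutrophil-like cells, chosen by S100a8, S100a9, Csf3r and Cxcr2, were checked with other neutrophil genes. Ngp and Camp, granule protein genes, stood at 2566 and 1093 CPM in them, Retnlg at 475 CPM and Trem1 at 607 CPM, while Ly6g rested on 6 UMIs. Cxcl2 reached 10398 CPM in neutrophil-like cells (1969 UMIs, exact 95% counting interval 9943 to 10867) and was seen in 92.5% of them, although their median depth was only 737 UMIs. Cxcl3 reached 512 CPM, from 97 UMIs in 36 cells, and 36 of those 36 cells also held Cxcl2. No Pf4 UMI was found in neutrophil-like cells, and against a limit of 3 counts over the group, 15.8 CPM, Pf4 was at least 60.0-fold higher in macrophage/monocyte-like cells. Ppbp was not detectable at this depth.

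No tumour had 20 neutrophil-like cells, the most being 11, so this class was compared with macrophage/monocyte-like cells on 1 sum per line, a choice made after seeing the data. Of 5 members tested, 2 were higher and 1 lower. Those higher were Cxcl3, by 2.97 ± 0.46 (log2, SE, edgeR adjusted p = 3.3e-08) and Cxcl2, by 1.55 ± 0.41 (adjusted p = 0.0063), where 4.45% of 10731 genes were called in either direction, 1.14% higher and 3.32% lower, and the median over all genes was -0.56. The Cxcl2 call was lost without line 15 (adjusted p = 0.40), without line 18 (0.35) and without line 19 (0.056). Cxcl1 did not pass, at 0.80 ± 0.39 (adjusted p = 0.28), but did with DESeq2's size factors, at 1.20 (0.033). Pf4 was called lower, with 0 UMIs on the neutrophil-like side, so its fitted change is no measure of size.

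Cxcl1 in line cells was lowest at day 0. The day 0 samples of line 15 stood at 63.6 and 45.2 CPM, that of line 18 at 87.9 CPM, those of line 19 at 38.6 and 37.7 CPM and those of line 24 at 348 and 339 CPM. Every later tumour lay above the day 0 samples of its own line. Line 15 gave 790, 1328 and 937 CPM at day 6, 820, 819 and 973 at day 10, and 1582, 1044 and 1003 at day 16. Line 18 gave 164, 114 and 168 CPM at day 6, 742, 611 and 570 at day 10, and 730, 258 and 1115 at day 16. The day 6 tumours of line 18 were thus lower than all its tumours of days 10 and 16.

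Line 19 gave 883, 868 and 690 Cxcl1 CPM at day 6, 391, 342 and 440 at day 10, and 390, 406 and 590 at day 16. Here day 6 was the highest day. Line 24 gave 1839 and 1927 CPM at day 6, 2448, 2547 and 2180 at day 10, and 2381, 2294 and 2246 at day 16. All 8 of these lay above every control tumour, while no tumour of line 19 did. Line 15 had a mean of 1033 ± 263 CPM after day 0 (SD, n = 9), line 18 of 497 ± 342 (n = 9), line 19 of 555 ± 212 (n = 9) and line 24 of 2233 ± 246 (n = 8). The means of control line 18 and KO line 19 over all days after day 0 did not differ beyond their spread, which includes differences between days. By day the lines did differ, in opposite directions. At day 6 all tumours of line 19 lay above those of line 18, and at day 10 all lay below. At day 16 the tumours of these lines overlapped.

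**Figure D2:**
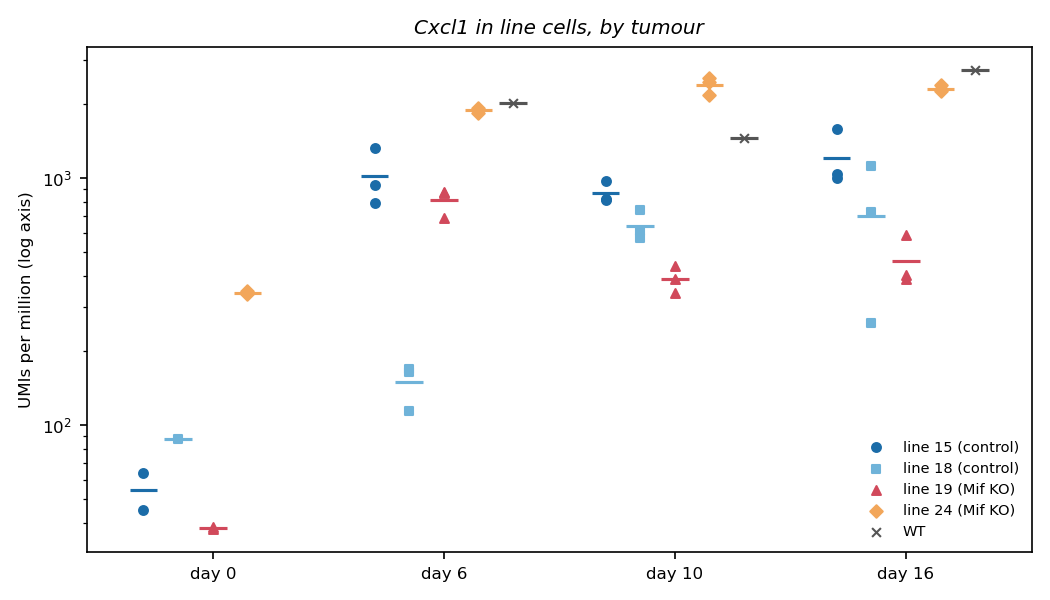
Cxcl1 in line cells by day, in CPM on a log axis, 1 symbol per tumour with a short bar at the mean of each line and day. Day 0 samples lie between 37.7 and 348, and the 8 later tumours of line 24 lie between 1839 and 2547, above all control tumours.

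After day 0, 5 of 6 members tested in line cells were higher than at day 0 and none lower (edgeR with line as a factor, the 4 single-line libraries), where 50.3% of 13086 genes were called in either direction, 26.2% higher and 24% lower. The members' median log2 change was 3.60, against -0.0005 over all genes. Cxcl1 rose by 3.42 ± 0.36 (adjusted p = 9.1e-09), Cxcl2 by 4.14 ± 0.62 (3.2e-06), Cxcl3 by 3.78 ± 0.83 (0.00039) and Csf3 by 3.96 ± 0.73 (5.5e-05). Cxcl3 and Csf3 rested on 5 and 4 UMIs in all day 0 line cells. Pf4 rose by 1.19 ± 0.30 (0.0016), and Cxcl5 stood at 1.13 ± 0.52 without passing (adjusted p = 0.073), a value that passed with DESeq2 (0.049) and without line 19 (0.020).

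Line by line, the rise of Cxcl1 was 4.32 ± 0.65 in line 15 (39.3% of genes called), 4.04 ± 0.65 in line 19 (39% called) and 2.85 ± 0.59 in line 24 (39.9% called), each past the threshold. In line 18, which had 1 day 0 sample and 6.98% of genes called, it was 2.30 ± 0.81 (adjusted p = 0.083). Cxcl2 passed in lines 15, 19 and 24, Cxcl3 in lines 15 and 24, Csf3 in lines 15 and 19, and Pf4 only in line 15. Cxcl5 passed in no line and ran from 5.10 in line 15 to -0.07 in line 19. The difference in rise between KO and control lines was 0.13 ± 0.57 for Cxcl1 (adjusted p = 0.90), where 32.2% of genes were called. For the other members tested its SE was 0.76 (Pf4) or more, so their missing calls say little. The summed level of the 10 macrophage marker genes in line cells moved with these values, from 14.8 to 53.9 CPM at day 0 (median 28.8) to 21.8 to 145 CPM in later control tumours (median 70.4) and 15.2 to 301 CPM in later KO tumours (median 91.0). Pf4 in line cells reached 0.619% of its macrophage/monocyte-like level, inside the 0.299% to 0.982% reached by those marker genes. Cxcl2 and Cxcl3 reached 2.57% and 2.34%, above that range, and in T-cell-like cells they reached 1.88% and 2.80%. The 10 marker genes also set the macrophage/monocyte-like gate, which by itself holds down their level in other classes. Their range is therefore no independent yardstick. The 8 fibroblast marker genes moved further, from 7.40 to 86.9 CPM in line cells at day 0 (median 21.1) to medians of 196 CPM in later control and 287 CPM in later KO tumours. The part of macrophage and fibroblast RNA in the rise of any of the 5 members was not tested.

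Most pathway genes tested were also higher after day 0, against 26.2% of all genes called higher. Of 17 NF-kB regulators and targets tested, 16 were higher after day 0 and none lower, with a median log2 change of 2.31. Birc3, an inhibitor of apoptosis induced by NF-kB, rose by 3.90. Of 12 inducing cytokines and their receptors, 9 were higher and 2 lower, with Il1a, an alarm cytokine, up by 3.83 and Il17ra, the interleukin 17 receptor subunit, at -0.66. Of 9 other attractants and receptors, 7 were higher and 1 lower, among them Ltb4r1, the leukotriene B4 receptor, by 4.46 and Csf2, the granulocyte-macrophage growth factor, by 4.15. Csf1, the macrophage growth factor, was lower at -0.47. Several of these genes were also higher in macrophage/monocyte-like than in line cells, Ltb4r1 by 5.86, Il1a by 4.72 and Birc3 by 4.70, and the macrophage and fibroblast marker genes rose in line cells as given above. Their part in these rises was not tested either.

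Across the 42 grouped samples and 9669 genes, the levels most like that of Cxcl1 in line cells were those of Irf1 (Pearson r = 0.973 on the log2(CPM + 1) scale), Nfkbiz (0.958) and Tnfaip3 (0.946). Irf1 encodes an interferon-induced transcription factor, Nfkbiz a cofactor of NF-kB, and Tnfaip3 its feedback inhibitor A20. For Cxcl2 they were Srgn (0.963), Tyrobp (0.961) and Fcer1g (0.960), and for Pf4 C1qa (0.851), C1qc (0.842) and C1qb (0.837), all genes strongly expressed by macrophages. These correlations describe samples that share libraries and lines.

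The KO lines were compared with the control lines over all 42 samples, day 0 included. In line cells, 3 of 6 members tested were higher in KO samples and none lower, where 51.5% of 13016 genes were called in either direction, 27.3% higher and 24.2% lower. Ppbp was too low to be tested. Csf3 was higher by 1.75 ± 0.35 (log2, SE, edgeR adjusted p = 9.5e-05), Cxcl2 by 1.05 ± 0.35 (0.013) and Cxcl1 by 0.92 ± 0.32 (0.015). Cxcl3 differed by -0.50 ± 0.39 (0.30), Cxcl5 by 0.37 ± 0.43 (0.49) and Pf4 by -0.30 ± 0.37 (0.53). On days after 0 alone, Csf3 was at 1.74 (edgeR adjusted p = 0.00036), Cxcl2 at 0.90 (0.0498) and Cxcl1 at 0.83 (0.039).

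These calls changed with the lines and the hashtag call. Without line 24 the Cxcl1 difference became -0.46 (adjusted p = 0.23) and the Cxcl2 difference -0.18. Without control line 18, Cxcl1 was at 0.57 (adjusted p = 0.22), and without line 15, Cxcl2 was at 1.10 (adjusted p = 0.072). With another hashtag call Cxcl2 was at 0.48 (adjusted p = 0.22). Csf3 rested on line 19, and without it the difference was 0.43 (adjusted p = 0.45). Other members gained a call: Cxcl5 was higher by 1.34 without line 19, Pf4 and Cxcl3 were at -1.32 and -1.18 without line 24, and Cxcl3 was at -0.89 with another hashtag call. Line 19 tumours held 2.17 ± 1.26 CPM of Csf3 in line cells (SD, n = 9), while control tumours lay between 0.101 and 2.06 CPM. On 1 sum per line, with 2 lines a group, none of the members passed, nor did any in the mixed libraries alone, where Csf3 was at 1.77 (adjusted p = 0.21), Cxcl1 at 0.83 (0.41) and Cxcl2 at 0.59 (0.55). With library as a term Cxcl1 was at 0.46 (adjusted p = 0.64) and Cxcl2 at 0.23 (0.84), while Csf3 passed at 1.83 (0.010). No single-line library holds both groups, so any fit with library as a term takes the KO difference from the mixed libraries. It is no separate check beside the mixed libraries alone. On 1 sum per line Mif itself did not pass (log2 change -3.07, adjusted p = 0.62), so that fit says little about the members. Line cells of line 24 also held the most marker RNA of other classes. The macrophage marker genes had a median of 225 CPM there against 54.8, 85.0 and 57.1 in lines 15, 18 and 19. The T-cell marker genes had 42.1 CPM against 2.06, 4.63 and 4.28, and the fibroblast marker genes 386 CPM against 140, 284 and 205. Their part in the KO difference was not tested.

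Among the pathway genes in line cells, 9 of 17 NF-kB genes tested were higher in KO samples and 1 was lower, where 27.3% of all genes were called higher and 24.2% lower. Their median was 0.75, against 0.02 over all genes. Csf2 was higher by 3.15, Cxcl12, a chemokine of stromal cells, by 2.21, Lcn2, an iron-binding protein of neutrophils and epithelia, by 1.68, and Tnfaip3 by 1.52. Ptgs2, the inducible cyclooxygenase, was lower at -0.77. Without line 24 Cxcl12 was lower in KO samples, at -2.58, Csf2 stood at -0.34 and did not pass, and the calls of Lcn2 and Tnfaip3 were lost. On 1 sum per line none of these 5 genes passed.

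In macrophage/monocyte-like cells 1 of 5 members tested was higher in KO tumours and 3 were lower, where 34% of 8145 genes were called in either direction, 17.6% higher and 16.4% lower. Pf4 in control tumours of line 15 stood at 1074, 300 and 473 CPM at day 6, 1002, 1391 and 1210 at day 10 and 1486, 1731 and 1662 at day 16. Line 18 gave 730, 787 and 1211 CPM at day 6, 536, 1497 and 1186 at day 10, and 873, 1581 and 1230 at day 16. In both control lines the highest tumour was therefore one of day 16. Among KO tumours, line 19 gave 109, 94.7 and 531 CPM at day 6, 1637, 1006 and 881 at day 10, and 1007, 545 and 1066 at day 16. Line 24 gave 330 and 257 CPM at day 6, 491, 449 and 584 at day 10, and 134, 216 and 303 at day 16.

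The Pf4 ranges of the groups overlapped, at 300 to 1731 CPM in control tumours (median 1198, n = 18) and 94.7 to 1637 CPM in KO tumours (median 491, n = 17), with 5 KO tumours below all control tumours. Pf4 was lower in KO tumours by a log2 change of -1.06 ± 0.25 (SE, edgeR adjusted p = 0.0014). Ppbp, its chromosomal neighbour, ranged from 0 to 59.3 CPM in control tumours (median 7.57) and from 0 to 17.5 CPM in KO tumours, of which 9 had no UMI. Its log2 change was -3.14 ± 0.63 (adjusted p = 0.00025) and rested on 454 UMIs in control and 21 in KO tumours, 129 of them from 1 day 16 tumour of line 15. Cxcl3 was lower by -1.36 ± 0.32 (adjusted p = 0.0012), with 10.3 to 139 CPM in control and 2.26 to 107 CPM in KO tumours. Without line 15 Cxcl3 was at -0.90 (adjusted p = 0.060) and Ppbp was too low to be tested. Without line 24 none of these passed, nor did they on 1 sum per line, within the mixed libraries alone (Pf4 -0.92, adjusted p = 0.059) or with library as a term. On 1 sum per line Pf4 was at -1.24, Cxcl3 at -1.37 and Ppbp at -3.43. With library as a term Pf4 was at -0.96 and Cxcl3 at -1.35, while Ppbp shrank to -2.14.

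**Figure D3:**
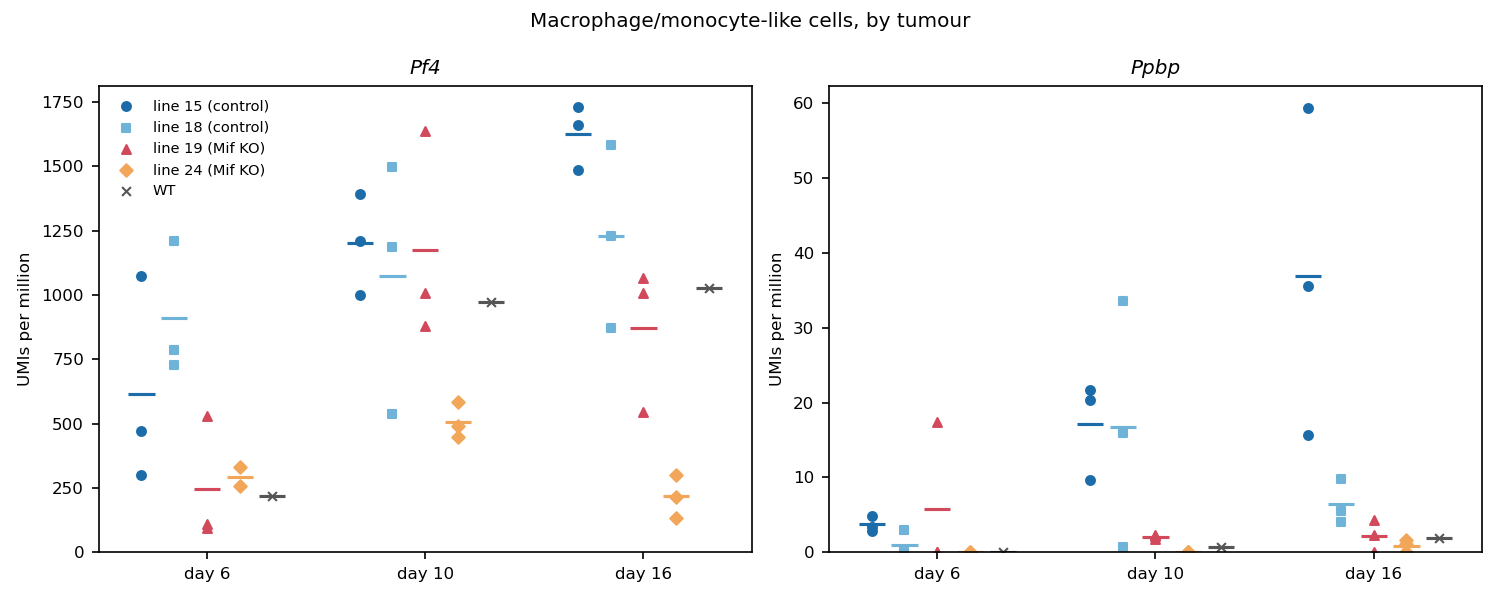
Pf4 (left) and Ppbp (right) in macrophage/monocyte-like cells by day, in CPM, 1 symbol per tumour with a short bar at the mean of each line and day. Pf4 in line 24 stays between 134 and 584, and the highest Ppbp value, 59.3, is a day 16 tumour of line 15.

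Most macrophage/monocyte-like cells with a Ppbp UMI also held Pf4. Of 178 macrophage/monocyte-like cells with a Ppbp UMI, 96.6% also had Pf4, against 46.5% of the cells without Ppbp. The former had a median depth of 3892 UMIs and the latter 2462, and after thinning to 1000 UMIs the shares were 89.2% and 34.1%. These shares pool cells of all tumours. Of the 479 Ppbp UMIs in this class, 314 came from line 15, which also had the highest pooled Pf4 level, 1298 CPM. Differences between tumours thus enter the contrast. The 8 platelet markers summed to 0 to 10.3 CPM in macrophage/monocyte-like cells of control tumours (median 2.75) and 0 to 6.77 CPM in KO tumours (median 4.36). Over all cells their medians were 6.33 CPM in control and 5.88 CPM in KO tumours. The marker genes of the class itself had lower medians in KO tumours, at 10668 against 12810 CPM for the 10 macrophage markers and 5157 against 6277 CPM for the 3 C1q genes, with overlapping ranges. For lines 15, 18, 19 and 24 in that order, the macrophage marker medians were 13540, 11549, 8554 and 10764 CPM. The C1q medians were 6268, 6287, 4205 and 5503 CPM. Line 19 was thus lowest in both, while the pooled Pf4 level was lowest in line 24. Markers of other classes had higher medians in KO tumours, at 14.5 against 2.63 CPM for T cells and 94.2 against 72.1 CPM for fibroblasts. The 10 neutrophil genes outside the gate stood at 256 against 204 CPM. The part of any of these markers in the KO differences of this class was not tested. Osteoclast-like cells, multinucleate relatives of macrophages, had Pf4 at 108 CPM.

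Cxcl1 was higher in KO macrophage/monocyte-like cells by 0.72 ± 0.20 (adjusted p = 0.0043), with 88.4 to 497 CPM in control and 134 to 669 CPM in KO tumours. The call was lost without line 24, at 0.25 (adjusted p = 0.48), without line 18, at 0.58 (0.054), and on 1 sum per line, at 0.80 (0.25). It was also lost in the mixed libraries alone, at 0.09 (adjusted p = 0.89), and with library as a term, at 0.13 (0.86). Cxcl1 in T-cell-like cells, given above by line, was higher in both KO lines too, and its part in this difference was not tested. Cxcl2 did not pass, at 0.38 ± 0.17 (adjusted p = 0.080), with ranges of 763 to 3153 and 1088 to 4536 CPM. It passed without line 15, at 0.65 (adjusted p = 0.019), and with another hashtag call, at 0.45 (0.041), and was at 0.09 without line 18. Of 15 NF-kB genes tested in this class 4 were higher and none lower, where 17.6% of all genes were called higher and 16.4% lower. Vcam1, an adhesion molecule, was higher by 1.45, Il1a by 1.20 and Fpr2, a formyl peptide receptor, by 1.04, while C5ar1, the receptor of complement C5a, was lower at -1.16. None of these 4 passed on 1 sum per line, and Fpr2 was at 0.43 without line 24.

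In fibroblast-like cells, a class added to the KO comparison after seeing the data, 2 of 5 members tested were lower in KO tumours and none higher, where 17.8% of 5884 genes were called in either direction, 9.62% higher and 8.21% lower. Csf3 ranged from 0 to 91.9 CPM in control tumours (median 11.7, n = 17) and from 0 to 50.1 CPM in KO tumours (n = 13), of which only 4 had a UMI. It was lower by a log2 change of -2.20 ± 0.64 (SE, edgeR adjusted p = 0.013). Without line 24 its adjusted p was 0.082. Cxcl5 ranged from 27.5 to 505 CPM in control tumours (median 138) and from 21.2 to 225 CPM in KO tumours (median 105), and was lower by -0.83 ± 0.29 (adjusted p = 0.039). That call was lost with DESeq2 (adjusted p = 0.080), without line 15, without line 24, in the mixed libraries alone and with library as a term. Cxcl1, Cxcl2 and Cxcl3 differed by 0.43 ± 0.22, 0.17 ± 0.28 and -0.42 ± 0.47 and did not pass, though Cxcl3 was called at -2.51 without line 19. Of 16 NF-kB genes tested in this class 3 were higher and 2 lower.

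Among control fibroblast-like cells, 5 of the 7 members had lower means at day 16 than at day 6 by more than 1 on the log2(CPM + 1) scale, a pattern noticed in the values and given with no test. The same fall was seen in 4.5% of the 9624 genes with a mean of at least 5 CPM, which those 5 members passed. Cxcl1 lay between 1001 and 3170 CPM in 6 tumours of day 6 and between 329 and 667 CPM in 5 of day 16, a mean log2 difference of -2.02. Cxcl2 lay between 666 and 1572 CPM at day 6 and between 19.0 and 235 CPM at day 16 (-3.19), and Cxcl3 between 7.61 and 68.4 CPM and between 0 and 6.55 CPM (-3.70). None of these 3 overlapped between the days, as for 1.21% of those genes, while Cxcl5 (-1.89) and Csf3 (-3.42) did. Pf4 and Ppbp stayed at or under 4.84 CPM on both days. The Cxcl1 values of the 2 KO tumours of day 16 with enough fibroblast-like cells, both of line 19, were 2154 and 2379 CPM, and their Cxcl2 values were 590 and 687 CPM. In the same tumours Cxcl3 was at 32.3 and 37.1 CPM, Cxcl5 at 24.2 and 134 CPM and Csf3 at 0 in both. Whether the course differs between the groups was not tested. Without the mixed libraries the differences were -2.04 for Cxcl1, -3.24 for Cxcl2, -3.24 for Cxcl3, -1.30 for Cxcl5 and -2.50 for Csf3. Csf3 in this class came from 53 cells, of which 98.1% also had Cxcl1 and 62.3% Cxcl5, against 81.6% and 26.7% of the other cells, at median depths of 8058 and 7745 UMIs.

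Endothelial-like cells had Csf3 at 29.1 CPM, from 59 UMIs in 13 of 362 cells, of which 21 UMIs came from 1 tumour (line 19, day 6). T-cell-like cells had 3 Csf3 UMIs among 4201 cells.

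Against these levels, neutrophil-like cells were a small share of every tumour. After day 0 they were 107 of 94083 assigned cells, 0.114% (exact 95% interval 0.0932% to 0.137%, counting error only), and at day 0 they were 0 of 6376, which allows a share of up to 0.0471% by a limit of 3 cells and 0.0578% by the exact 95% upper bound. The tumours of line 15 held 0.379% ± 0.234 (SD, n = 9), those of line 18 0.103% ± 0.0825 (n = 9), those of line 19 0.0664% ± 0.0782 (n = 9) and those of line 24 0.0347% ± 0.0347 (n = 8). Line 15 thus stood above the other lines, with shares from 0.0787% to 0.789%. Near the gate were 19 cells with 5 to 9 S100a8 and S100a9 UMIs and a receptor UMI, and 41 of those inside had only 10 to 19. A further 138 cells had at least 10 such UMIs and no receptor UMI. In tumour samples a smaller share does not tell fewer neutrophils from fewer surviving dissociation and the sort.

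The mean share was 0.241% ± 0.222 (SD, n = 18) in control and 0.0515% ± 0.0621 (n = 17) in KO tumours, a difference of -0.189 percentage points (two-sided permutation test over tumours, p = 0.0004). Without line 15 it was -0.0510 (exact permutation p = 0.097). Over the 4 line means the exact permutation p was 0.333, the smallest that 2 lines against 2 allow. By day the difference was -0.257 at day 6 (exact permutation p = 0.12), -0.204 at day 10 (0.0065) and -0.101 at day 16 (0.11). In the mixed libraries alone it was -0.254 (exact permutation p = 0.0043), and in the single-line libraries alone -0.156 (permutation p = 0.025). Cells whose hashtags marked them as doublets held 61 neutrophil-like profiles among 38402, 0.159%.

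**Figure D4:**
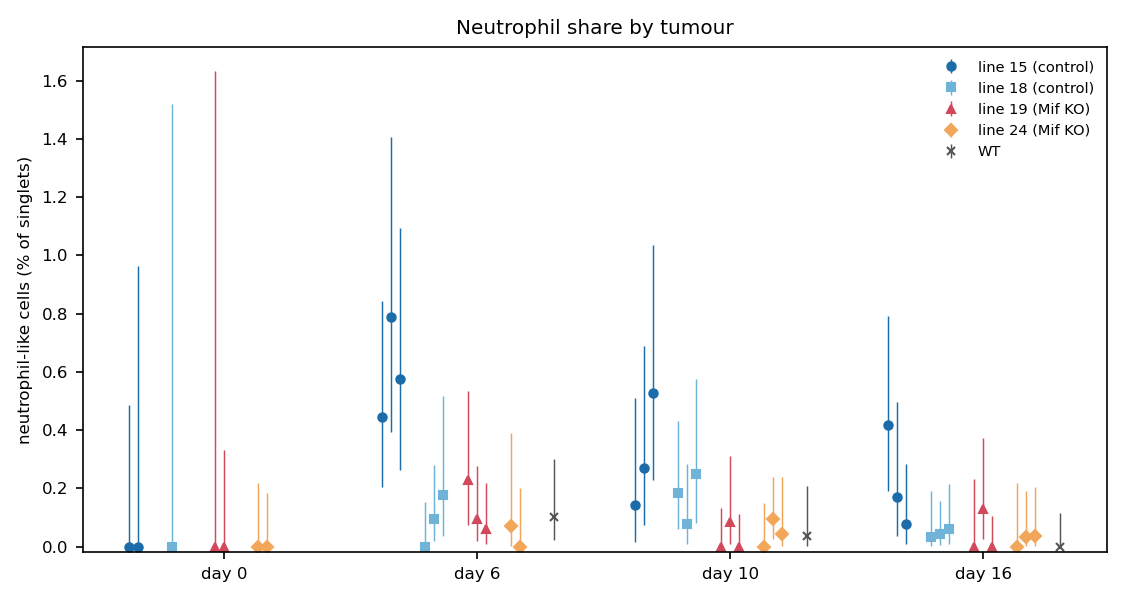
Neutrophil-like cells as a percentage of assigned cells, 1 symbol per tumour with its exact 95% counting interval, by day and line. The day 0 samples have none, and line 15 holds the highest shares, up to 0.789%.

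The level of each member in line cells was then set beside the neutrophil share across 35 tumours after day 0. For 6 members the pooled values were between -0.023 (Cxcl5) and 0.431 (Cxcl3), and none passed after adjustment over 7 relations. For Cxcl3, Pearson's r was 0.431 (permutation p = 0.0096, adjusted 0.067) and Spearman's rho 0.304 (p = 0.077, adjusted 0.27), and without the 2 tumours farthest from the median level r was 0.529. Cxcl1 in line 24 formed a separate cluster, so no pooled value is given for it. Across the 27 tumours of the other lines its r was 0.499 (permutation p = 0.0089, adjusted 0.021; rho 0.531, p = 0.0050) and 0.508 without the 2 farthest tumours. Of those lines, line 15 had the highest mean Cxcl1 level and the highest mean neutrophil share, as given above. The permutation over tumours took no account of line. Line 24 was set apart after its values were seen. With it kept, the relation did not pass over all 35 tumours (permutation p = 0.57) or without line 15 (0.37), line 18 (0.96) or line 19 (0.98). Within line 15, r was 0.370, within line 18 0.127, within line 19 0.508 and within line 24 0.016, and none of these passed an exact permutation test, the lowest p being 0.16. Without line 24, Cxcl2 and Cxcl3 passed too, with r = 0.630 (permutation p = 0.00041, adjusted 0.0029) and 0.594 (0.0011, adjusted 0.0039).

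Within lines, the Cxcl2, Cxcl3 and Cxcl5 values were positive in lines 15, 18 and 19 and negative in line 24. For Cxcl2 in line 15, r with the neutrophil share was 0.961 (n = 9, exact permutation p = 8.0e-05, adjusted over 7 members 0.00056; rho 0.933, p = 0.00075), and 0.907 without the 2 farthest tumours. Line 18 gave 0.641 (exact permutation p = 0.065, adjusted 0.15), line 19 gave 0.719 (0.027, adjusted 0.074) and line 24 gave -0.438 (0.28, adjusted 0.78). These tests took no account of day, and were adjusted within each line but not over the 4 lines together. In line 15 the mean share was 0.604% at day 6, 0.312% at day 10 and 0.222% at day 16. For Cxcl3 r was 0.766, 0.666, 0.583 and -0.228 in lines 15, 18, 19 and 24, and for Cxcl5 it was 0.521, 0.796, 0.721 and -0.373, and none of these passed after adjustment. The macrophage marker genes summed over line cells correlated with the neutrophil share at r = 0.739 in line 15, with line 18 at 0.383, line 19 at 0.342, line 24 at -0.474 and all 35 tumours at -0.024. Cxcl2 in line cells correlated with those marker genes at r = 0.862 over the 35 tumours, and their part in the relation was not tested. The part of RNA from neutrophil-like cells, in which Cxcl2 was at 10398 CPM, was not tested either.

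**Figure D5:**
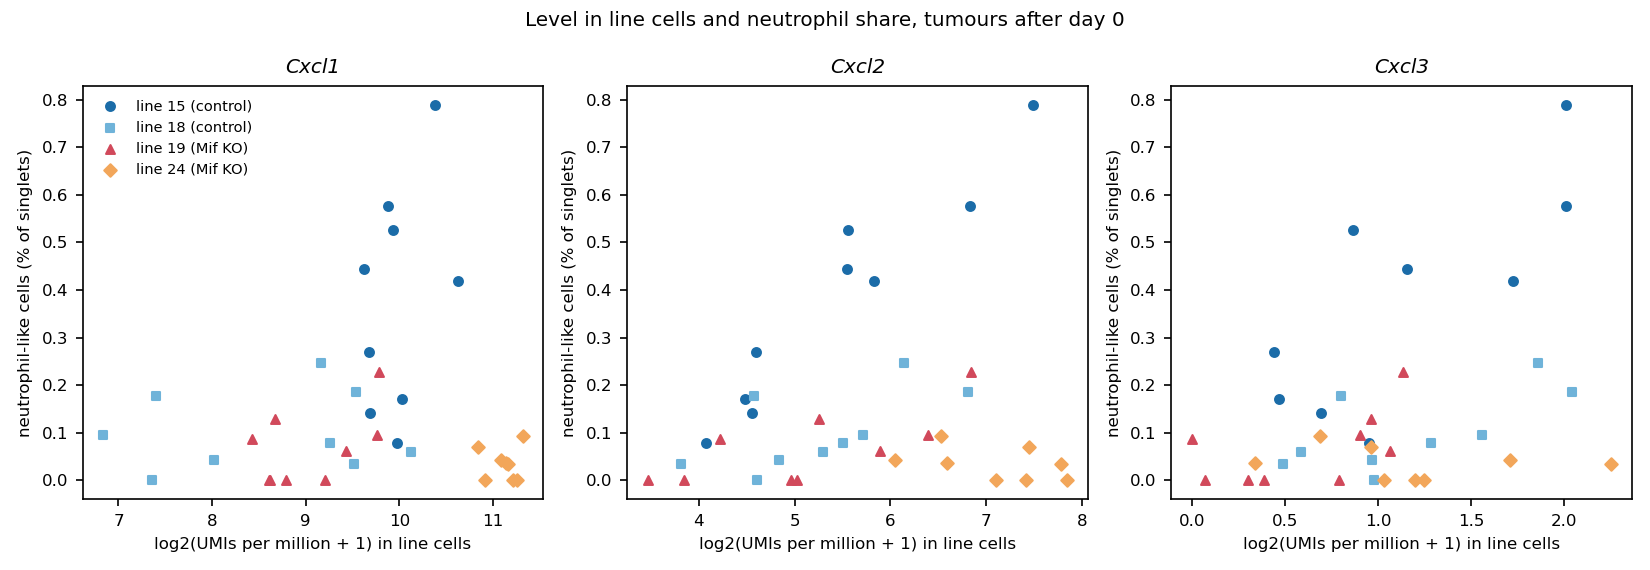
Neutrophil-like cells (% of assigned cells) against the log2(CPM + 1) level of Cxcl1, Cxcl2 and Cxcl3 in line cells, 1 symbol per tumour after day 0, coloured by line. The tumours of line 24 lie at the right of the Cxcl1 panel with shares near 0, apart from the other lines.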

How the data were processed

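Per the labels' protocols, dissociated tumours were hashed with TotalSeq-C antibodies, live cells were sorted with propidium iodide, and the 10x 5′ v2 kit gave the libraries. Each of the 6 matrices the authors deposited holds raw counts of UMIs, made with Cell Ranger 6.0.0 on mm10 per the submitters' processing notes; a deposited sheet ties each hashtag to a line, day and letter.

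Barcodes needed 300 genes or more and no more than 15% mitochondrial UMIs, which 163866 of 176381 met. Of 47 hashtags, 2 fell under 0.1% of a library's hashtag total and were dropped. HTODemux (Seurat 5.3.0, quantile 0.99) assigned 100459 cells to 1 hashtag. Hashtag doublets, 17.9% to 30.9% of a library, and unassigned cells were removed, and doublets within a tumour remain. Classes were set by fixed marker counts per cell, in which cells past more than 1 gate formed a class of their own.

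Sums of raw counts over each tumour's cells of a class (at least 20 cells) were tested with edgeR 4.0.16 (R 4.3.3, filterByExpr, TMM, quasi-likelihood, day as a factor, tumour as a block between classes), with Benjamini-Hochberg adjustment over all genes tested and a threshold of 0.05. The planned tests on neutrophil-like sums per tumour could not be run. Shares were compared by permutation over tumours (100000 resamples, or exact), with 95% exact binomial or Poisson intervals for counting error. UMIs are molecule counts, and depth sets how well the rare members are seen. The scripts were checked on simulated counts. Alternatives were DESeq2 1.42.0, other scaling and filters, another hashtag call, library as a term, the mixed libraries alone, 1 sum per line and each line left out.

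The members, the 49 pathway genes (receptors, other attractants, inducing cytokines, and NF-kB regulators and targets) and the tests were chosen with earlier results of these data known. Of the pathway genes, those with the 4 largest changes each way per comparison could be named, and the others are counted.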

Additional observations from a re-analysis of the deposited data

Results flagged for a closer look

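Among 40 sets of tumours of 1 line examined for a sample far from the others (a member in a class that holds it, or the neutrophil share), 6 held such a sample. The rule's nominal rate of 1 in 20 assumes normal values. These are sparse counts over several days, so 6 is not read as an excess. All 6 were high values. Cxcl3 in macrophage/monocyte-like cells of line 19 stood at 107 CPM in tumour B of day 16, from 25 UMIs, while the other 8 tumours lay between 5.57 and 50.6 CPM. Cxcl5 in fibroblast-like cells of line 18 stood at 505 CPM in tumour C of day 6, against at most 248 CPM in the others. Ppbp in macrophage/monocyte-like cells stood at 33.5 CPM in tumour C of day 10 of line 18, against at most 15.9 CPM, and at 17.5 CPM in tumour C of day 6 of line 19, against at most 4.29 CPM. Csf3 in fibroblast-like cells stood at 50.1 CPM in tumour B of day 6 of line 19, against at most 3.76 CPM. In line 24 its value of 4.73 CPM, in tumour B of day 10, was 1 UMI, the others having none. Of these 6 tumours, 3 lettered C came from the mixed libraries.

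The 3 WT tumours, which no group holds, had Cxcl1 in line cells at a median of 2011 CPM, from 1461 to 2746 CPM, above the control range of 114 to 1582 CPM for all but 1 tumour. Their Csf3 in line cells had a median of 2.62 CPM, above the control range of 0.101 to 2.06 CPM, with 0.737 CPM in the tumour of day 10. Pooled over line cells after day 0, Cxcl1 was at 2044 CPM in WT, 549 CPM in line 19 and 2286 CPM in line 24. Csf3 was at 2.13, 2.12 and 0.516 CPM in the same order. All 3 WT tumours were captured in 1 library, so WT and that library cannot be told apart except through its tumours of lines 18 and 24.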

How the results depend on the processing

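Of 374 alternative values of the members in the comparisons of groups, days and classes, 303 kept their direction and their side of the threshold, 43 lost the call, 12 gained one and 16 turned, all but Cxcl1 and Cxcl2 in line cells without line 24 from values that had not passed. Between KO and control in line cells, the log2 difference with a line left out ran from -0.46 to 1.65 for Cxcl1, -0.18 to 1.84 for Cxcl2, -1.18 to 0.20 for Cxcl3, -1.02 to 1.34 for Cxcl5, -1.32 to 0.46 for Pf4, -0.34 to 5.06 for Csf2 and -2.58 to 3.39 for Cxcl12. Cxcl5 there was also -0.33 in the mixed libraries alone and -0.64 with library as a term. In fibroblast-like cells it ran from -2.51 to 0.098 for Cxcl3, -0.25 to 0.69 for Cxcl1 and -0.52 to 0.44 for Cxcl2, with Cxcl1 at -0.021 and Cxcl2 at -0.20 in the mixed libraries alone and Cxcl2 at -0.063 on 1 sum per line. The fitted log2 difference of Ppbp between neutrophil-like and macrophage/monocyte-like cells was 0.22 with DESeq2. Ppbp had 0 UMIs on the neutrophil-like side, so this value is no measure of size. The correlation with the neutrophil share, near 0 over all lines, ran with a line left out from -0.184 to 0.499 for Cxcl1, -0.241 to 0.285 for Cxcl5 and -0.121 to 0.177 for Pf4. In the same settings it ran from 0.098 to 0.630 for Cxcl2, 0.051 to 0.430 for Csf3 and 0.024 to 0.492 for Ppbp. It was -0.075 for Cxcl1 and -0.076 for Pf4 as a share of gated immune cells, and -0.024 for Pf4 and -0.020 for Csf3 with at least 30 S100a8 and S100a9 UMIs. In line cells the 6701 genes called between KO and control became 0 on 1 sum per line, 133 in the mixed libraries alone and 1810 with library as a term, and 4629 to 8187 with a line left out. In macrophage/monocyte-like cells 2772 became 4, 378 and 388 under the same settings, and 816 to 3197 with a line left out (816 without line 24, 1786 without line 15). In fibroblast-like cells 1049 became 452, 280 and 466, and 554 to 1050 with a line left out. In neutrophil-like cells 478 became 240 with DESeq2 and 155 to 318 with a line left out. The difference in neutrophil share ran from -0.328 to -0.0510 percentage points with a line left out, was -0.257 at day 6 and -0.101 at day 16, and missed the threshold without line 15 and on those days. Without line 24, 3 members (Cxcl1, Cxcl2, Cxcl3) passed in the relation with the neutrophil share, against none with all lines. Fewer samples enter several of these settings, and otherwise the cause was not tested.

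No analysis paired by replicate number was possible because the control lines (15, 18) and the KO lines (19, 24) share no replicate numbers. The mixed libraries hold lines of both groups, and the values in them and with library as a term are given above. Control and KO tumours of the same mixed library and day were not tested as pairs. The alternatives planned for neutrophil-like sums per tumour were not run, since no tumour had 20 such cells. Rare members rest on few UMIs, and a value of 0 or 1 UMI sets no order between tumours.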

Other observations

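The 3 WT tumours, given as single values, had Pf4 in macrophage/monocyte-like cells at 219 CPM at day 6, 975 CPM at day 10 and 1028 CPM at day 16. Ppbp was at 0, 0.664 and 1.96 CPM in the same cells. Cxcl5 in their fibroblast-like cells was 39.6, 38.9 and 121 CPM, and neutrophil-like cells were 4 of 8729.

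Fibroblast-like cells of the KO tumours were also compared in the pathway genes, of which 6 were called higher and 4 lower among the 25 tested, where 17.8% of all genes were called. Icam1, an adhesion molecule used by neutrophils, was higher by a log2 change of 0.93 (edgeR adjusted p = 0.0046), Ccl2, a monocyte attractant, by 0.85 (0.037), Il17ra by 0.83 (0.0095) and Csf1 by 0.83 (4.2e-05). Lif, a cytokine of the interleukin 6 family, was lower at -1.54 (0.0051), Ptgs2 at -0.82 (0.0018) and Il1r1, the interleukin 1 receptor, at -0.60 (0.00015). The macrophage marker genes in fibroblast-like cells had a median of 284 CPM in line 24, against 91.7, 89.3 and 97.9 CPM in lines 15, 18 and 19, and their part in these differences was not tested. Neutrophil-like cells, on 1 sum per line, had Lcn2 higher than macrophage/monocyte-like cells by 8.38 and Fpr1, a formyl peptide receptor, by 3.23, and Ccl2 lower at -3.90. The receptor genes Cxcr2 and Csf3r were part of the gate for these cells and are not compared.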
